A study of Homo sapiens with 6 samples.

Results

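Retained-intron transcripts are transcript models in which an exon runs on into sequence that other models of the same gene splice out. They were taken as all transcripts of the 6 libraries whose type in the human annotation GENCODE 29 is retained_intron. There were 26287 of them among 159239 transcripts that matched this annotation (16.5%), out of 173259 listed, and they belonged to 9202 genes. Protein-coding genes held 26047 of them. In 7259 the value was 0 in all 6 libraries, and 5196 (19.8%), from 2989 genes, reached a level of 1 TPM in at least 3 libraries and were tested. TPM, the deposited unit, counts transcripts corrected for length and sums to the same total in every library. The other 21091 were too low to test.

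The libraries came from RPMI 8226, a cell line from a multiple myeloma, the tumour of plasma cells. Cells carried a lentiviral short hairpin RNA against luciferase, a gene they do not have (shLuc, the control, 3 libraries), or against the histone deacetylase HDAC1 (shHDAC1, 3 libraries). All had been grown in medium with 10% serum and selected with puromycin for 48 h, so both groups share the vector and the drug. The series describes transductions in triplicate. All tests therefore weigh the groups against the spread among libraries of 1 cell line. How many hairpins against HDAC1 were used, and their sequence, is not given in the sources used here.

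An intron that stays in an RNA often keeps that RNA in the nucleus, or brings an early stop codon that marks it for nonsense-mediated decay. Cells use such retention to hold down the output of some genes, among them genes of splicing factors and kinases, and to keep a reserve that can be spliced later. Short introns rich in G and C with weak splice sites are the ones most often retained. In short-read data a retained-intron model shares most of its exons with the spliced models of its gene, so that its value rests on how reads were divided between them.

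HDAC1, the target, had a summed level of 89.98, 85.0 and 88.9 TPM in the shLuc libraries and 31.8, 27.0 and 29.2 TPM in the shHDAC1 libraries. All shHDAC1 libraries were below all shLuc libraries, and the log2 change was -1.56 ± 0.08 (SE, limma adjusted p = 2.2e-06). Plasma cell genes were present in all libraries, with a summed level of 11052 to 11650 TPM with shLuc and 7404 to 8524 TPM with shHDAC1, and 3 of 24 listed at 0 (EDNRB, LAMP5 and SLAMF1). Markers of T and NK cells summed to 2.63 to 3.32 TPM with shLuc and 4.35 to 5.30 TPM with shHDAC1, with CD2, CD3D and NKG7 at 0. Myeloid markers summed to 8.92 to 11.5 and 17.6 to 22.2 TPM, with MPO and S100A8 at 0, and fibroblast markers to 0.937 to 1.98 and 0.789 to 2.96 TPM, with LUM at 0. Mitochondrial genes held 1.57 to 1.72% of the annotated TPM with shLuc and 1.96 to 2.95% with shHDAC1. The part of these differences in the results below was not tested.

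Intron sequence held by some of the transcripts described below is shown first, in the direction of transcription and as GENCODE 29 gives it on GRCh38. The first set, from 3 transcripts whose share of their gene was called, holds the longest stretch of each transcript that lies in no exon of the other, non-retained models of its gene. Each of these transcripts starts inside an intron and runs into the next exon, and the capitals mark the last 2 intron bases, the acceptor site. The stretch of CANX-210 lies at chr5:179723478-179723659 on the plus strand, that of COMMD6-210 at chr13:75530409-75530504 on the minus strand and that of SAT2-212 at chr17:7627415-7627479 on the minus strand. They are 182, 96 and 65 bases long.
CANX-210: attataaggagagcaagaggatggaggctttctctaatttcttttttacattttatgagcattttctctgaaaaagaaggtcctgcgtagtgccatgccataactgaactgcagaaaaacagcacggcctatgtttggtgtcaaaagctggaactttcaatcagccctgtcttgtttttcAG
COMMD6-210: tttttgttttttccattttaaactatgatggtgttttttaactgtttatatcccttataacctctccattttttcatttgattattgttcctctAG
SAT2-212: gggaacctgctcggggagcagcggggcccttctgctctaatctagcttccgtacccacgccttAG

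The second set holds whole retained introns with up to 20 coding exon bases on each side where these exist, the capitals marking the first and last 2 intron bases. They are at chr19:10395344-10395434 (CDC37-209, minus strand, 91 bases), chr1:41008715-41008793 (CTPS1-210, plus, 79 bases), chr16:8898438-8898530 (USP7-211, minus, 93 bases) and chr22:50526142-50526245 (TYMP-206, minus, 104 bases). The others are at chr17:43013374-43013475 (IFI35-201, plus, 102 bases), chr12:46362382-46362493 (SLC38A2-212, minus, 112 bases) and chr1:153990803-153990913 (RPS27-204, plus, 111 bases, shown without exon bases). The first 6 belong to transcripts whose TPM was called higher or lower, of which CDC37-209 and CTPS1-210 were also called in their share of the gene, and the last to the most abundant retained-intron transcript.
CDC37-209: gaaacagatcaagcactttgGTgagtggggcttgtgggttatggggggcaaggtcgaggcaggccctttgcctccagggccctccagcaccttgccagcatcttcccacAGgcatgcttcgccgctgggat
CTPS1-210: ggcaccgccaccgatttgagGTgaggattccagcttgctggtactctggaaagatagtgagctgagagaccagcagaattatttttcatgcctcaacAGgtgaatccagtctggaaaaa
USP7-211: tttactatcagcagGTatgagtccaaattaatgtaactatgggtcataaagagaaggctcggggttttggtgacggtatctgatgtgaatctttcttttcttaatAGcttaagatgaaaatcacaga
TYMP-206: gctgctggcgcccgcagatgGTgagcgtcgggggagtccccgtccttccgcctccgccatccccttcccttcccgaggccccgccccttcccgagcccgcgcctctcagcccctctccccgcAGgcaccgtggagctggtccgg
IFI35-201: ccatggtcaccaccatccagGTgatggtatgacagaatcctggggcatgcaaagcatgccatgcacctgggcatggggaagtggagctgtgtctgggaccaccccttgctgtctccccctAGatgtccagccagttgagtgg
SLC38A2-212: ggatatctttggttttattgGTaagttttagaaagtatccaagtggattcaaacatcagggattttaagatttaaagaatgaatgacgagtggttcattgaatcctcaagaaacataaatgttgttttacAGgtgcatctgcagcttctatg
RPS27-204: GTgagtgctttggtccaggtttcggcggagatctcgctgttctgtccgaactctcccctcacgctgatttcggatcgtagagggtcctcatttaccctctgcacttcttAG

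The 7 introns of the second set begin with GT and end with AG. Their G and C content ran from 31.2% in SLC38A2-212 to 76.0% in TYMP-206. Of the 12657 annotated introns held whole by retained-intron transcripts, 97.2% had these ends, the median length was 270 bases and the median G and C content 56.1%. The 3472 held by tested transcripts had a median of 234 bases and 57.7%, and the 39 held by transcripts called higher or lower had 153 bases and 64.5%. A donor reading GTAAGT or GTGAGT, searched on the transcribed strand only, was found in 21.4% of all, 20.9% of tested and 3 of the 39 introns (7.69%). These values describe the annotation of the called transcripts, and several of these introns come from the same gene.

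Retained-intron transcripts held 8.84, 8.67 and 8.82% of the annotated TPM in the shLuc libraries and 8.70, 8.61 and 9.03% in the shHDAC1 libraries. The groups overlapped, with means of 8.77 ± 0.09% and 8.78 ± 0.22% (SD, n = 3). Without ribosomal protein genes the values were 6.89, 6.82 and 6.90% against 6.85, 6.60 and 7.06%, which also overlapped. The number of retained-intron transcripts at 1 TPM or more was 4866, 4902 and 5059 with shLuc and 5455, 4544 and 5376 with shHDAC1. The shHDAC1 libraries thus lay on either side of the controls. Transcripts typed as nonsense-mediated decay held 5.59, 5.55 and 5.52% with shLuc and 5.44, 5.49 and 5.46% with shHDAC1, where all 3 shHDAC1 values were lower. No test is given for these sums, since they add up the chosen members.

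**Figure D1:**
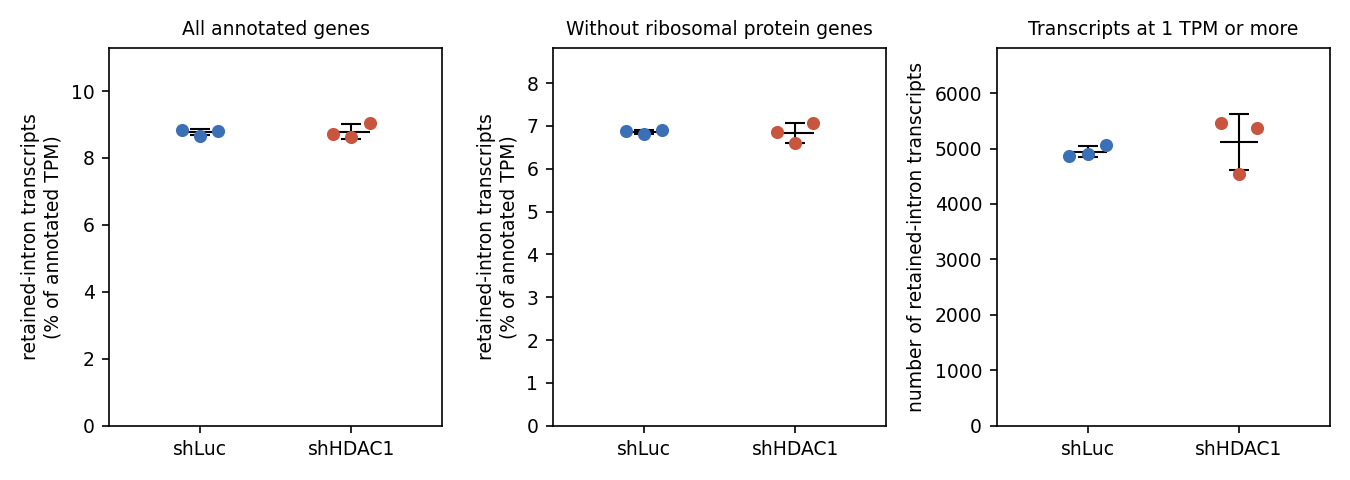
Share of the annotated TPM in retained-intron transcripts, in all genes (left) and without ribosomal protein genes (middle), and number of retained-intron transcripts at 1 TPM or more (right); points are libraries, bars the mean and SD of 3. The groups overlap in all panels, and the shHDAC1 libraries spread more widely than the shLuc libraries.

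Ribosomal protein genes supplied 36.5% of the retained-intron TPM with shLuc, and the 10 most abundant retained-intron transcripts, all from this group, supplied 24.0%. RPS27-204 was the highest, at 3442, 3075 and 3264 TPM with shLuc and 3321, 3651 and 3812 TPM with shHDAC1. RPL10-214, RPL37A-201, RPS23-203, RPLP1-204, RPL36A-205, RPL24-202, RPL35-203 and RPL11-205 were also among them. Their genes encode, in their spliced forms, proteins of the large and small ribosomal subunits. None of the 10 was called in the TPM or the share test. RPL11-205 held 58.9% of its gene with shLuc and 56.2% with shHDAC1, and RPL37A-201 held 99.1 and 99.2%.

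In some of these genes a coding model was listed at 0 beside an abundant retained-intron model. RPS27-201, the only listed coding transcript of RPS27, is 359 bases long and was listed at 0 in all 6 libraries, so that the retained-intron transcripts made up the whole gene sum. RPL24-201, a coding transcript of 623 bases, was also listed at 0 in all 6 libraries, while RPL24-202 stood at 1820, 1873 and 1756 TPM with shLuc and 1502, 1815 and 1692 TPM with shHDAC1. In RPLP1, by contrast, the coding RPLP1-202, of 445 bases, held a mean of 3036 TPM with shLuc beside 1920 TPM for the retained-intron RPLP1-204. These coding transcripts were singled out after their values were seen.

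The files listed short transcripts at 0 far more often than long ones. Of coding transcripts up to 300 bases, 652 of 652 were at 0 in all libraries, of those of 300 to 400 bases 995 of 1157 (86.0%), and of those over 1200 bases 11174 of 44653. Retained-intron transcripts went the same way, with 356 of 356, 722 of 951 (75.9%) and 15.4%. The 10 most abundant retained-intron transcripts were 539 to 940 bases long. The part of this in the retained-intron share of the libraries was not tested.

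In the test of TPM across all 39716 transcripts that passed the filter, a transcript was called higher or lower at a limma adjusted p below 0.05. Of the 5196 retained-intron transcripts, 42 were called higher and 39 lower with shHDAC1 (1.56%), against 3.33% of all transcripts (1.83% higher and 1.51% lower). By type, 4.19% of protein-coding transcripts were called, 2.01% of nonsense-mediated decay transcripts and 1.92% of processed transcripts, the last 2 close to the retained-intron share. With libraries centred on their median the split of the retained-intron calls was 38 higher and 61 lower. The groups did not overlap for 451 transcripts that were higher and 452 that were lower (17.4%), against 25.6% of all transcripts (14.6% higher and 11% lower). The median log2 change was -0.01 over the tested retained-intron transcripts and 0.03 over all transcripts.

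Of the called transcripts, 20 of the 42 higher passed the filter only through the shHDAC1 libraries and 14 of the 39 lower only through the shLuc libraries, so that these had to differ. With 1 library left out at a time, 9 to 24 retained-intron transcripts were called in place of 81. CANX-210, COMMD6-210, CDC37-209, CTPS1-210, RGS1-206 and TYMP-208 kept their call in each of the 9 to 14 alternatives that could test them. All of these but TYMP-208 passed the filter through 1 group only, so their kept calls are no sign of stability. Among the 81, 5 had no base outside the exons of the other, non-retained models of their gene, and 20 overlapped exons of another gene.

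The called transcripts mostly moved with their genes, whose transcripts were summed and tested in the same way. Of 11857 genes, 27.2% were called (16.9% higher and 10.3% lower). This balance turned with the scaling, from 2007 higher and 1219 lower to 1336 and 1828 with median centring and 1412 and 1591 with quantile normalization. The host gene was called in the same direction for 34 of the 42 higher and 26 of the 39 lower retained-intron transcripts. It was not called for 20, and in 1 case, CDC37-209, it was called in the opposite direction. The gene sum contains the retained-intron transcript, so the pair is not independent.

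**Figure D2:**
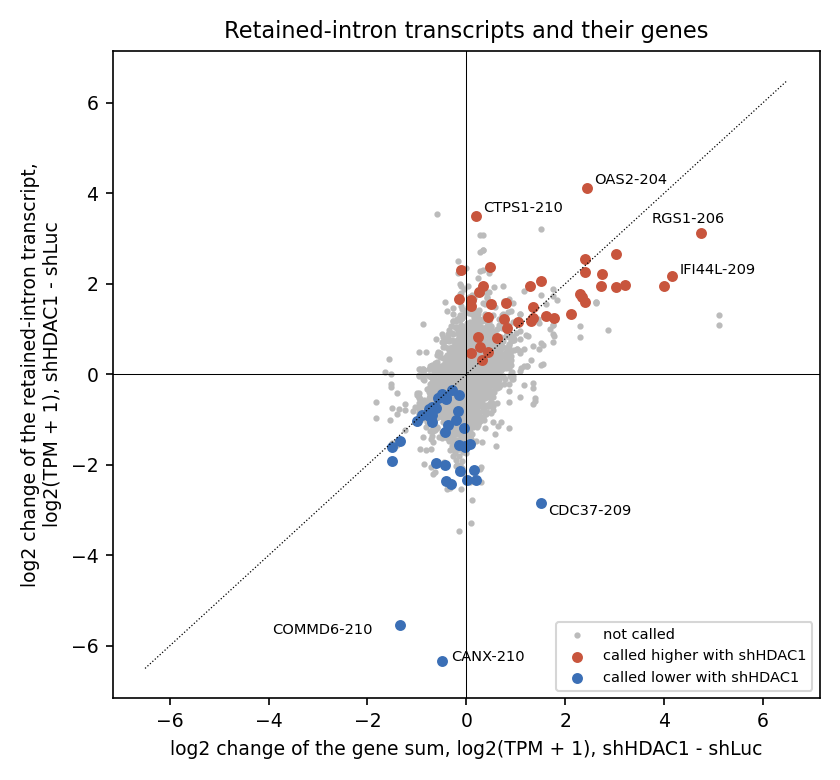
Log2 change of each tested retained-intron transcript (vertical) against that of its gene sum (horizontal), both on log2(TPM + 1); red and blue points are transcripts called higher and lower, the dotted line marks equal change. Most called transcripts lie in the upper right or lower left. CTPS1-210 and CANX-210 lie there too but far from the dotted line, and CDC37-209 lies in the lower right.

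Of the 42 increases, 10 came from the list of interferon-stimulated genes. The list held 114 retained-intron transcripts, of which 37 were tested, and 10 of these were called higher and 0 lower. Over all tested retained-intron transcripts 0.81% were called higher. Of the 37, 14 passed the filter only through the shHDAC1 libraries, and 6 of the 10 were among them (IFI44L-209, IRF9-209, MX1-215, MX2-209, RSAD2-205 and DHX58-208), so the count is given as a description only. Of the genes of this list, 54 of 55 tested were called higher, against 16.9% of all genes. The 10 were OAS2-204, IFI44L-209, IRF9-209, MX1-215, MX2-209, RSAD2-205, IFI35-201, DHX58-208, PARP12-207 and BST2-203, from genes that sense or restrict viruses or carry the interferon signal. The list had been shown to rise in these libraries before it was used here, so its direction is not independent evidence. The sums of T cell, NK cell and myeloid markers given above were higher in the same libraries. In the T and NK cell list and in the myeloid list only 1 of 8 markers each reached a mean of 1 TPM.

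OAS2-204, from an oligoadenylate synthetase that switches on RNA decay in infected cells, was at 0, 5.22 and 1.31 TPM with shLuc and 51.1, 42.5 and 31.9 TPM with shHDAC1. All shHDAC1 libraries were above all shLuc libraries, while the shLuc libraries differed widely among themselves. The log2 change was 4.11 ± 0.65 (SE, limma adjusted p = 0.034), and the call was lost in 9 of 14 alternatives, with adjusted p up to 0.13. Of the 521 bases of OAS2-204, 21 lie outside the other, non-retained models of its gene. IFI44L-209, from an antiviral gene, was at 0.162, 0.318 and 0.093 TPM against 5.68, 3.05 and 4.66 TPM. MX1-215, from a GTPase that blocks virus particles, was at 0.848, 0.404 and 0.274 TPM against 4.20, 5.21 and 5.203 TPM. IRF9-209, from the DNA-binding subunit of the interferon-activated transcription factor, was listed at 0 in all shLuc libraries and at 2.70, 3.98 and 2.99 TPM with shHDAC1, and none of its bases is its own. These 3 reached 1 TPM in the shHDAC1 libraries only, so their groups had to differ.

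The retained-intron level was also summed over the interferon list. The sum was 138, 148 and 168 TPM with shLuc and 388, 342 and 371 TPM with shHDAC1, while the sum of all their transcripts went from 2385 ± 50 to 12200 ± 391 TPM (SD, n = 3). The retained-intron percent of this list was 5.72, 6.35 and 6.97% with shLuc and 3.17, 2.90 and 2.95% with shHDAC1, with all shHDAC1 libraries lower. This is a ratio of pooled sums, which also moves when genes with little retained-intron RNA grow in weight, and it does not show a fall within genes. Per gene, the percent did not overlap between the groups in 5 of 26 interferon genes, 2 higher and 3 lower, beside 6.22% higher and 7.11% lower over all 3374 genes tested in this way. In MX1 the percent was 8.32, 8.46 and 3.34% against 2.10, 3.98 and 2.81%, where the groups overlapped.

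A cluster of increases came from overlapping genes on chromosome 22. TYMP, which encodes thymidine phosphorylase, and ODF3B lie beside each other and share exon sequence in the annotation with each other and with SCO2. TYMP-208, at chr22:50525755-50529996 on the minus strand, was at 42.3, 39.8 and 50.03 TPM with shLuc and 272, 246 and 266 TPM with shHDAC1. These groups were far apart, with a log2 change of 2.55 ± 0.10 (SE, limma adjusted p = 5.9e-04). TYMP-208 alone held 71.6 ± 4.3% of the TYMP sum with shLuc and 79.2 ± 0.9% with shHDAC1 (SD, n = 3), and this share was not called (adjusted p = 0.48). TYMP-206, TYMP-207, ODF3B-207 and ODF3B-208 were also called higher, from 1.18 to 4.71 TPM with shLuc to 8.29 to 28.4 TPM with shHDAC1. How reads in the shared exons were divided between these genes is not given in the sources used here.

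RGS1-206, from a regulator of G protein signalling in lymphocytes, was at 0.342, 0.471 and 0.224 TPM with shLuc and 10.8, 9.38 and 11.8 TPM with shHDAC1. RGS1-206 reached 1 TPM in the shHDAC1 libraries only, so its groups had to differ. The log2 change was 3.12 ± 0.18 (SE, limma adjusted p = 0.002), and the gene rose by more, by 4.75. HELZ2-201, from a helicase gene that interferon induces, was at 1.26, 1.05 and 0.957 TPM against 8.79, 7.20 and 10.3 TPM beside a gene change of 2.74. None of the bases of HELZ2-201 is its own. OXSR1-204, from a kinase of the salt and stress response, was at 1.17, 0.0189 and 0 TPM against 6.42, 7.36 and 3.95 TPM, and lost its call in 10 of 13 alternatives. USP7-211, from a deubiquitinase that acts on the p53 pathway, was at 0, 0.000467 and 0.750 TPM against 4.89, 3.79 and 6.60 TPM. USP7-211, too, reached 1 TPM in the shHDAC1 libraries only, and so had to differ. Its gene did not pass the test, with a log2 change of -0.12 (adjusted p = 0.27).

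**Figure D3:**
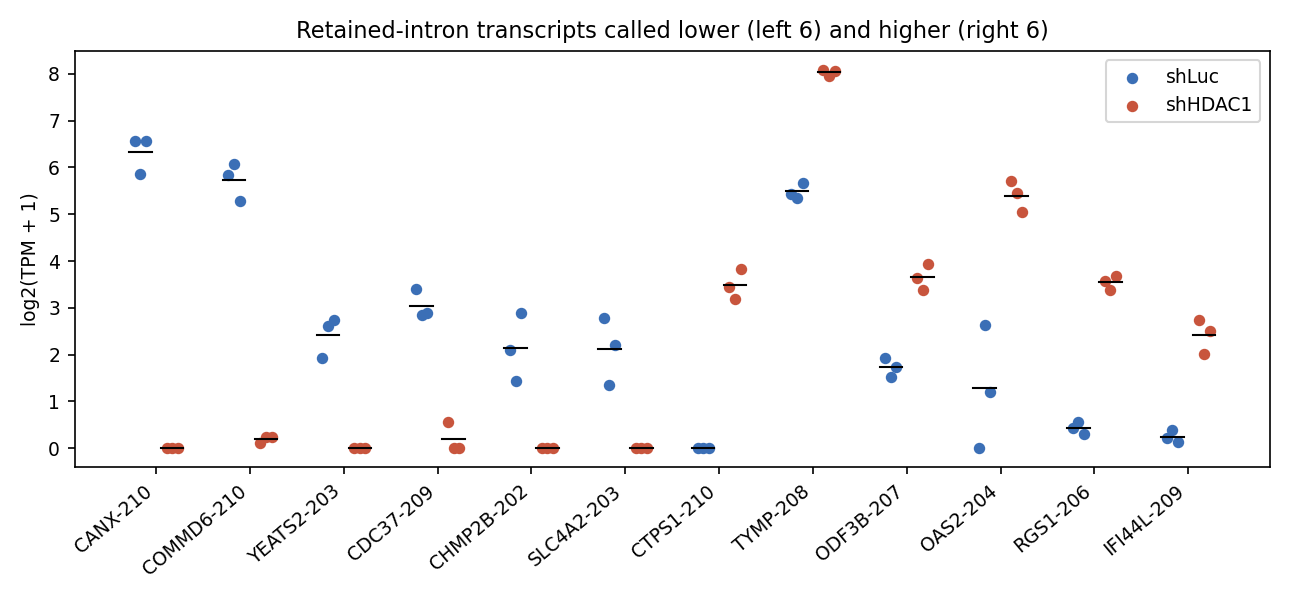
TPM of 12 retained-intron transcripts in each library on a log2(TPM + 1) axis, 6 called lower (left) and 6 called higher (right); points are libraries and lines the means of the log values. The groups do not overlap in any of the 12, but most of them were chosen by a rule that required this. CANX-210, YEATS2-203, CHMP2B-202, SLC4A2-203 and CTPS1-210 sit at or next to 0 in all libraries of 1 group.

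Among the decreases, 2 stood far below the rest. CANX-210, 485 bases from chr5:179723478-179726735 in the gene of the endoplasmic reticulum chaperone calnexin, was at 93.9, 56.9 and 94.1 TPM with shLuc and at 0, 0 and 1.1e-06 TPM with shHDAC1. COMMD6-210, 595 bases from chr13:75526436-75530504 in a gene of the COMM domain family, was at 56.4, 66.1 and 38.1 TPM with shLuc and 0.0771, 0.173 and 0.171 TPM with shHDAC1. Both were thus well expressed in every control library and near or at 0 in every knockdown library. They passed the filter through the shLuc libraries only, and so had to differ. The log2 changes on the log2(TPM + 1) scale were -6.33 ± 0.22 (limma adjusted p = 4.4e-04) and -5.54 ± 0.22 (6.5e-04). They moved with the pseudocount, from -9.64 to -4.08 for CANX-210 over the alternatives.

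The rest of the 12 largest decreases were at 1.55 to 27.6 TPM with shLuc, and apart from ITGB7-205 most of their values were at or near 0 with shHDAC1. YEATS2-203, from a subunit of a histone acetyltransferase complex, was at 2.82, 5.08 and 5.65 TPM with shLuc and listed at 0 in all shHDAC1 libraries. Of its 572 bases, 547 overlap exons of another gene, YEATS2-AS1. CHMP2B-202, from a membrane-remodelling ESCRT subunit, and SLC4A2-203, from an anion exchanger, were also listed at 0 in all shHDAC1 libraries. RBM25-208, from a splicing factor, was at 5.06, 6.60 and 6.38 TPM against 0, 1.52 and 0 TPM. ZFC3H1-205, from a factor that hands nuclear RNA to the exosome, was at 2.61, 3.51 and 2.55 TPM and listed at 0 with shHDAC1. ULK3-214, PDXDC1-212 and DST-210 showed the same form, and of these 8 only the genes of YEATS2-203, RBM25-208 and ZFC3H1-205 were called lower. All 8 but RBM25-208 reached 1 TPM in the shLuc libraries only, and so had to differ. The call was lost in 7 of 9 alternatives for SLC4A2-203, 8 of 12 for RBM25-208 and 6 of 9 for CHMP2B-202 and PDXDC1-212. It was lost in 5 of 9 for ULK3-214, 4 of 9 for YEATS2-203 and DST-210 and 3 of 9 for ZFC3H1-205. None of the bases of ZFC3H1-205 and 8 of the 841 of ULK3-214 lie outside the other, non-retained models of their genes.

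ITGB7-205, from an integrin chain of plasma cells, fell with its gene: 20.2, 27.6 and 23.5 TPM against 5.65, 4.12 and 7.12 TPM, beside a gene change of -1.49 (limma adjusted p = 1.2e-06). All 651 bases of ITGB7-205 overlap exons of another gene, ZNF740, and its call was lost in 6 of 14 alternatives. A second ITGB7 transcript, ITGB7-214, was called lower too. In the list of the unfolded protein response and endoplasmic reticulum chaperones, CANX-210, TXNDC5-202 and CALR-205 were called lower of 35 tested and 0 higher. Over all tested retained-intron transcripts 0.75% were called lower. Of the 30 genes of this list 20 were called lower, against 10.3% of all genes. TXNDC5-202, from a protein disulfide isomerase, was at 11.3, 9.07 and 7.82 TPM against 2.75, 2.63 and 2.68 TPM. CALR-205, from the chaperone calreticulin, was at 281, 258 and 289 TPM against 202, 188 and 217 TPM. In the interferon, chaperone and plasma cell lists the called retained-intron transcripts moved in the direction of most called genes, whose sums contain such transcripts. These lists, too, had been seen to move in these libraries.

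The share test asked whether a transcript changed against the other transcripts of its gene. Of 5109 retained-intron transcripts, 2 were called higher, CTPS1-210 and SAT2-212, and 5 lower, CANX-210, COMMD6-210, CDC37-209, IFI27-205 and IFI27-203 (0.137%). Over all 37019 transcripts 0.0918% were called (0.0378% higher and 0.054% lower), so the retained-intron count is a small number near a small background. All 7 reached 1 TPM in the libraries of 1 group only, and so had to differ in level. With a shHDAC1 library left out 3 of the 7 could be tested and 0 were called, and with a shLuc library left out 4 could be tested and 0 were called.

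COMMD6-210 made up 55.3, 65.8 and 46.7% of its gene with shLuc and 0.205, 0.466 and 0.487% with shHDAC1. The transcripts of COMMD6 without a retained intron summed to 41.1 ± 5.9 TPM with shLuc and 36.5 ± 1.4 TPM with shHDAC1 (SD, n = 3), while the gene sum fell by 1.34 on the log2 scale. The coding COMMD6-204 was at 8.12, 0.132 and 17.03 TPM against 17.3, 24.9 and 28.4 TPM. COMMD6-208, a processed transcript, was at 29.4, 27.4 and 26.5 TPM against 10.9, 8.15 and 6.64 TPM. Neither overlapped between the groups, and COMMD6-204 was higher while COMMD6-208 was lower.

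CANX-210 made up 9.45, 5.85 and 9.01% of the calnexin sum with shLuc and none of it with shHDAC1. The other CANX transcripts summed to 922 ± 26 TPM with shLuc and 711 ± 64 TPM with shHDAC1. In CDC37, which encodes a co-chaperone that brings kinases to their chaperone, the gene rose by 1.503 on the log2 scale while CDC37-209 went from 9.58, 6.15 and 6.40 TPM to 0.483, 0 and 2.23e-07 TPM. Another retained-intron transcript of the gene, CDC37-207, was at 5.95, 12.8 and 0.000317 TPM with shLuc and 33.1, 50.9 and 42.2 TPM with shHDAC1. All retained-intron transcripts of CDC37 together held 16.5, 17.3 and 6.75% of the gene with shLuc and 11.98, 18.1 and 13.7% with shHDAC1, so the retained-intron percent of the gene overlapped while its models moved in opposite directions. None of the bases of CDC37-209 is its own.

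CTPS1-210, from the CTP synthase that feeds lymphocyte growth, was listed at 0 in all shLuc libraries and at 9.91, 8.13 and 13.3 TPM with shHDAC1. At 5325 bases it holds 2 whole introns of coding transcripts, and 3468 of its bases lie outside the other, non-retained models. The gene did not pass the test, and the decay-type CTPS1-204 went with it, from 0, 1.88e-05 and 0 TPM to 15.6, 7.44 and 13.5 TPM. A further retained-intron transcript, CTPS1-211, was at 16.2, 18.8 and 11.7 TPM against 18.7, 2.43 and 19.3 TPM, so that the retained-intron percent of CTPS1 overlapped between the groups. SAT2-212, from a low-expressed acetyltransferase gene, was listed at 0 in all shLuc libraries and at 1.601, 1.74 and 2.22 TPM with shHDAC1.

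The 2 called falls in IFI27, an interferon gene of mitochondria and the nuclear envelope, came with a rise of the transcripts themselves. IFI27-205 was at 0.0481, 0.129 and 0.173 TPM with shLuc and 1.48, 1.05 and 1.57 TPM with shHDAC1, while the IFI27 transcripts without a retained intron went from 18.3, 11.2 and 9.83 TPM to 475, 508 and 657 TPM. The fall of the share was -4.03 with the pseudocount of 1 TPM (limma adjusted p = 0.032) and -2.41 with 0.1 TPM (adjusted p = 0.43). For IFI27-203 the mean percent of the gene was 0.182% with shLuc and 0.306% with shHDAC1, opposite to the call, and the arcsine scale turned the sign, to 0.0294.

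**Figure D4:**
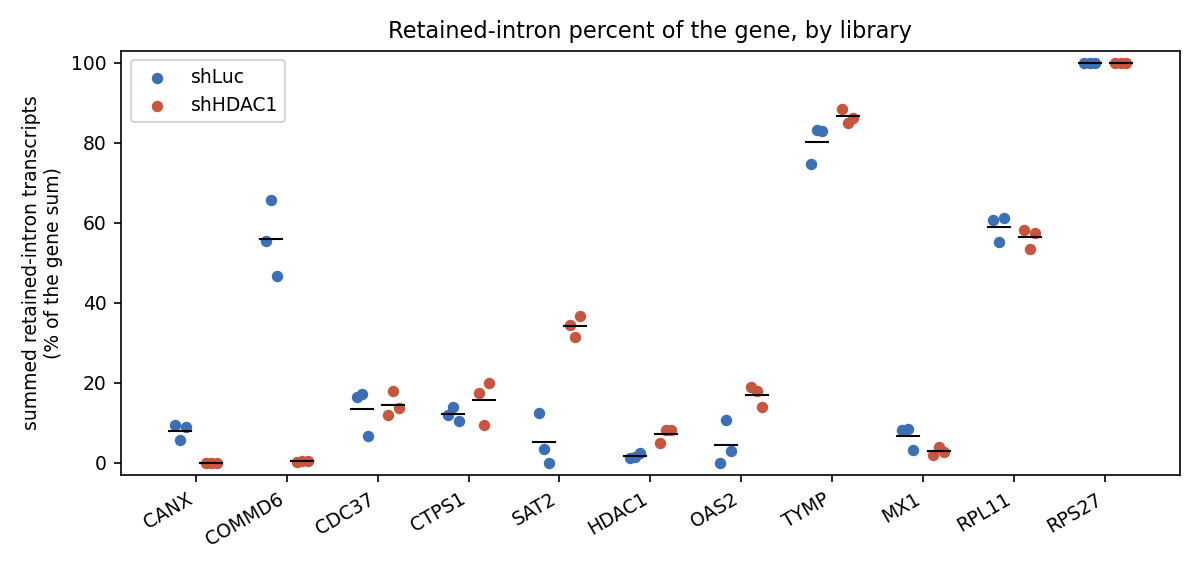
Summed retained-intron transcripts as a percent of the gene sum in each library for 11 genes; points are libraries and lines the group means. COMMD6 and CANX drop to or near 0 with shHDAC1, HDAC1 and SAT2 lie higher, and RPS27 stands at 100% in all libraries.

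Where a gene has several retained-intron transcripts, summing them against the rest of the gene removes errors in dividing reads between such models. Of 3374 genes tested, 0 were called higher and 2 lower, CANX (limma adjusted p = 4.7e-04) and COMMD6 (adjusted p = 0.0015), which is 0.0593% in this comparison, and 297 had an unadjusted p below 0.05. The CANX sum was made up of CANX-210 and the COMMD6 sum almost wholly of COMMD6-210, so both calls repeat those of the share test. Both genes were called with every single library left out. Their retained-intron sums passed the filter through the shLuc libraries only, so these kept calls are no sign of stability. COMMD6 lost its call with only protein-coding transcripts as the rest (adjusted p = 0.14) and without the second library of each group (0.067), while over all alternatives CANX had an adjusted p of at most 0.034. The retained-intron percent did not overlap between groups in 210 genes that were higher and 240 that were lower (13.3% of these genes, 6.22% higher and 7.11% lower). Over the 3374 genes the median change of the ratio was -0.02 on the log2 scale.

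Retained-intron RNA formed a small part of most of the 3374 genes tested for this sum. These genes had a mean retained-intron sum of at least 1 TPM, so genes with less are not counted. The median gene among them held 12.5% of its TPM in such transcripts, 1444 of the 3374 genes held under 10%, 187 over 50% and 30 over 90%. The 30, with RPS27, RPL37A and RPL24 among them, supplied 14.96% of all retained-intron TPM.

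HDAC1 itself fell, while the summed level of its retained-intron transcripts overlapped between the groups. The retained-intron transcripts summed to 1.21, 1.37 and 2.19 TPM with shLuc and 1.62, 2.22 and 2.38 TPM with shHDAC1, which overlapped. Their percent of the gene was 1.35, 1.61 and 2.47% with shLuc and 5.10, 8.22 and 8.17% with shHDAC1, with no overlap. The log2 change of the ratio was 1.89 ± 0.29 (SE, limma adjusted p = 0.15) and was not called. HDAC1-206, which made up most of it, was at 1.004, 1.37 and 1.14 TPM against 1.62, 1.78 and 1.82 TPM. All shHDAC1 libraries were above all shLuc libraries, but its TPM was not called (limma adjusted p = 0.41). Its share change of 1.96 had an adjusted p of 0.10. With a pseudocount of 5 TPM the ratio and the share of HDAC1-206 were called, with limma adjusted p = 0.0058 and 0.016. The coding HDAC1-201 was at 70.9, 72.3 and 69.0 TPM against 21.8, 23.2 and 21.0 TPM.

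Genes of splicing, export and decay were looked at for their own retained introns, since these genes are known for regulated retention. In the list of splicing kinases and genes with detained introns, 53 retained-intron transcripts were tested and 0 were called higher and 1 lower, RBM25-208. The share called was 1.56% over all tested retained-intron transcripts and 3.33% over all transcripts, so lists of this size would hold about 0 to 1 calls at the first of these, and the counts are not a result about their members. For SR proteins 0 of 32 were called, for hnRNP proteins 0 of 52, for RNA export and exon junction factors 0 of 18 and for nonsense-mediated decay factors 0 of 9. Of 45 in major spliceosome genes only SF3B3-214 was called, at 38.9, 44.6 and 40.2 TPM against 64.0, 62.7 and 62.2 TPM, and the 1 tested in minor spliceosome genes was not. Of 19 in exosome and surveillance genes only ZFC3H1-205 was called, and it was lower. The share test called 0 in each of these 8 lists. Their median changes in TPM lay between -0.13 and 0.17.

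Among the genes of these lists, RBM25 fell from 72.5, 84.3 and 73.8 TPM to 58.3, 56.2 and 57.0 TPM (log2 change -0.42, limma adjusted p = 0.0044). TIA1, which helps to define weak donor sites, rose from 48.7, 49.99 and 39.0 TPM to 90.4, 76.9 and 101 TPM (0.95, adjusted p = 6.3e-04). In these 2 genes the groups did not overlap. Among other members, MAGOH of the exon junction complex rose by 0.56, SRSF11 fell by 0.46 and EXOSC8 of the exosome fell by 0.94. EXOSC8 went from 47.2, 56.0 and 49.5 TPM to 25.1, 30.2 and 23.2 TPM. Other called members of the same lists went the other way. RBM8A fell by 0.17, SRRM2 rose by 0.47, EXOSC6 rose by 0.51 and RBM7 rose by 0.27. ZMAT5 of the minor spliceosome rose by 0.83 and ZCRB1 fell by 0.72. Of 49 genes of the major spliceosome 3 were called higher and 7 lower, and of 17 for SR proteins 1 and 2. Of 21 for export and exon junction factors 4 were called higher and 2 lower, and of 25 for exosome and surveillance 2 and 5. Over all genes 16.9 and 10.3% were called higher and lower.

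The other lists are read against the same shares, under which most would hold no call or 1. In cholesterol synthesis 0 of 27 were called beside 15 of 24 genes called lower, against 10.3% of all genes. In the list of ATF4 and amino acid genes 1 of 16 was called, SLC38A2-212, from an amino acid transporter, at 37.3, 32.1 and 38.5 TPM against 20.9, 14.6 and 15.4 TPM. For the NF-kB pathway 0 of 8 and for class I deacetylases and their corepressors 0 of 28 were called. In the plasma cell list 2 of 15 were called lower, the ITGB7 transcripts described above. Of its 18 genes 14 were called lower, against the same 10.3% of all genes.

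Values of single retained-intron transcripts varied widely between libraries of a group. At a mean of 5 to 20 TPM the median SD within a group was 0.36 on the log2(TPM + 1) scale, against 0.33 for nonsense-mediated decay transcripts, 0.35 for processed transcripts, 0.23 for protein-coding transcripts and 0.15 for gene sums. At 1 to 5 TPM it was 0.39 for retained-intron transcripts, next to 0.38 for protein-coding transcripts and below the 0.49 and 0.46 of the decay and processed types. A wide spread was thus shared by these types, and at this level by protein-coding transcripts too. Of the 5196 tested, 1072 were listed at 0 in at least 1 library, and 337 were at 5 TPM or more in 1 library and under 0.1 TPM in another of the same group. The median tested transcript had 230 bases of its own (28.5% of its length), 124 had 0 and 967 had no base that was not also in another model of the gene. CDC37-207 and RPS27-203, the latter at 63.6, 99.6 and 38.0 TPM with shLuc and 48.2, 191 and 43.6 TPM with shHDAC1, show this spread within a group.

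**Figure D5:**
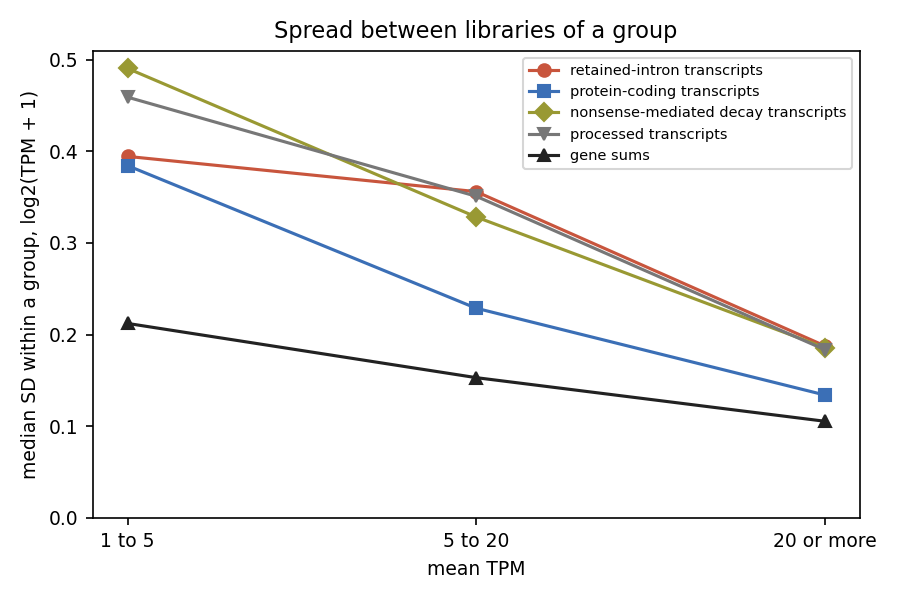
Median SD within a group on log2(TPM + 1), vertical, in 3 classes of mean TPM, horizontal, for 4 transcript types and gene sums. Gene sums lie lowest in each class. Retained-intron transcripts lie near the decay and processed types at 5 TPM and above, and near protein-coding transcripts at 1 to 5 TPM.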

How the data were processed

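RNA of RPMI 8226 cells was sequenced, 3 shLuc and 3 shHDAC1 libraries, grouped by their titles. For every library the authors deposited TPM values by Ensembl transcript, per the file headers. STAR, DESeq and hg19 appear in the submitters' processing notes without a version or role. Which tool and annotation gave the TPM is not given in the sources used here. Read depth cannot be read from TPM and is unknown here. The values sum to 1 total, so that a rise of some transcripts lowers others.

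Transcript identifiers without version were matched to GENCODE 29 (GRCh38), and 91.9% matched. Transcripts that reached 1 TPM in 3 or more libraries were tested with limma 3.58.1 (R 4.3.3), with a variance trend, on log2(TPM + 1), and Benjamini-Hochberg adjustment over all transcripts; calls are at an adjusted p below 0.05. The share is log2 of (TPM + 1) over (the other transcripts of the gene + 1), in genes with a mean sum of at least 5 TPM. Retained-intron sums against the rest were tested in genes with a mean retained-intron sum of at least 1 TPM. Fold changes on these scales understate those of low transcripts. The tests were tested on simulated data. Alternatives changed scaling, pseudocount, filter, denominator and libraries.

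Named were the transcripts of HDAC1, the 12 largest called increases and decreases with a mean of at least 1 TPM and no overlap of groups, the called shares, the 10 most abundant transcripts, and up to 2 per list and direction. Genes and lists were chosen with earlier results of these data known. Named besides, after their values were seen, were other transcripts of these genes, the called members of a list, IFI35-201, SLC38A2-212 and TYMP-206. Genes of chromosome Y are not named. A transcript among the most abundant transcripts is not reported here.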

Additional observations from a re-analysis of the deposited data

Results flagged for a closer look

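Transcripts whose identifiers did not match GENCODE 29, which entered no comparison, held 2.72, 2.72 and 2.73% of all TPM in the shLuc libraries and 3.14% on average with shHDAC1, with no overlap between the groups. They were picked out because they lie outside the measured set and were above the control level. Their types are not known here, so retained-intron transcripts among them are not counted.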

How the results depend on the processing

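The number of retained-intron transcripts called in TPM was 42 higher and 39 lower. It was 61 lower with median centring, 21 and 19 with no filter, and 1 and 0 (391 at an unadjusted limma p below 0.05) without the second library of each group, an alternative chosen after seeing the data. With 1 library left out it was 4 to 17 higher and 1 to 17 lower. Median and quantile scaling, pseudocounts of 0.1 and 5 TPM and a mean of at least 5 TPM kept 75, 73, 59, 74 and 45 of the 81 calls.

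For the share, called higher and lower were 6 with the arcsine scale and 1 with a protein-coding denominator (higher), 1 and 2 at a mean of at least 5 TPM, 9 and 33 with no filter, 4 and 9 at a pseudocount of 0.1 TPM, 8 and 28 at 5 TPM, 0 and 0 without the second libraries (189 unadjusted) and 0 to 0 with 1 library left out. IFI27-203 turned to 0.0294 on the arcsine scale. For the retained-intron sum they were 1 lower with the protein-coding denominator, 1 and 5 at 0.1 TPM, 5 and 13 at 5 TPM, 1 lower without the second libraries, and 0 to 1 higher and 2 to 3 lower with 1 library left out. Called gene sums were 1336 higher and 1828 lower with median centring, and 1295 to 1981 higher with 1 library left out. The difference in the retained-intron percent was 0.010 points, and 0.206 points over genes with such a transcript. Causes were not tested.

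With the replicate number as a block, called retained-intron transcripts were 5 higher and 4 lower in TPM and 0 and 0 in the share (341 unadjusted), and 2 genes lower in the retained-intron sum. Libraries with the same number had correlations of -0.01, 0.17 and 0.08 in TPM, and those with different numbers -0.16 to 0.07. Whether the numbers mark paired libraries cannot be told from these values.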
